A study of Drosophila melanogaster with 13 samples.

Results

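Trithorax related (trr) sites that lay close together were examined in heads of wildtype flies. The members were sites under 700 bp in length, outside the X chromosome, with another site of any length at most 3000 bp away on the same chromosome. Of 3371 sites in the deposited list, 869 met this rule, which is 25.8% of all sites and 32.8% of the 2652 narrow sites (under 700 bp) outside the X. The members were chosen by length and spacing, so both are described here without a test.

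trr is one of the Drosophila enzymes that methylate lysine 4 of histone H3, and it works within a COMPASS-like complex. Its closest human relatives are KMT2C and KMT2D. Enzymes of this branch are known as transcriptional co-activators that place the monomethyl mark at enhancers, and trr itself is known as a partner of the ecdysone receptor. G9a, the other gene studied, methylates lysine 9 of histone H3, a mark of silenced chromatin.

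The sites came from ChIP-seq with an antibody against trr on whole heads of wildtype flies aged 0 to 5 days, in 2 replicates with 1 input library. RNA-seq of heads compared 2 libraries labelled trr knockdown (Elav-Gal4/+; dicer2/+; P{TRiP.HMS01019}attP2/+) with 2 controls that carried P{y[+t7.7]=CaryP}attP2/+ in place of the RNAi insertion, and 3 libraries labelled G9a mutant (G9aDD1) with 3 precise excision controls (G9a+/+), all aged 0 to 5 days by their labels. Elav-Gal4 drives the RNAi in neurons, so the other cells of the head were not targeted, and in whole heads fewer cells of a type and less RNA per cell cannot be told apart. Neither targeted gene was lower in its knockdown or mutant libraries, and the study's RT-qPCR of the knockdown, on other cDNA, was not analysed here. trr stood at 94.1 and 85.9 CPM (reads of a gene per 1000000 reads counted in genes) in the libraries labelled knockdown and at 73.5 and 92.6 CPM in their controls. G9a stood at 74.8, 68.5 and 62.3 CPM in the libraries labelled mutant and at 60.0, 57.1 and 50.0 CPM in theirs, so the word labelled is kept below.

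Gene counts per library ranged from 18114408 to 28171883. Photoreceptor markers summed to between 49115 and 77754 CPM in the 10 libraries and neuron markers to between 3619 and 4575 CPM, which fits the label of heads. Yolk protein genes, markers of the female fat body, summed to between 3312 and 3439 CPM in libraries labelled trr knockdown against 5505 to 7400 CPM in their controls, and 2 of the 3 (Yp1 and Yp3) were called lower. In libraries labelled G9a mutant the 3 yolk protein genes summed to between 2058 and 3147 CPM against 2788 to 7108 CPM in controls, with 0 called. Testis and accessory gland markers summed there to between 0.29 and 95.0 CPM against 0.55 to 9.98 CPM, with 0 called. Neuron markers summed there to between 4338 and 4575 CPM against 3965 to 4132 CPM, with 0 called. In libraries labelled G9a mutant the photoreceptor markers summed to between 67675 and 71789 CPM against 49115 to 56562 CPM in controls. The 4 glial markers summed there to between 364 and 419 CPM against 477 to 575 CPM, with 1 glial gene called lower. Glial markers were also lower in libraries labelled trr knockdown, at 579 to 619 CPM against 653 to 704 CPM, with 0 called. Flight muscle markers summed to between 2886 and 3013 CPM in knockdown-labelled libraries against 2319 to 2581 CPM in controls, and to between 5432 and 6247 CPM in mutant-labelled libraries against 6455 to 6932 CPM in controls, with 1 called lower. Midgut proteases stood at 2.24 to 3.07 CPM against 0.072 to 0.075 CPM in the trr experiment, with 1 called higher. In the G9a experiment they stood at 0.12 to 1.05 CPM against 0.33 to 68.1 CPM. Ovary markers stood at 0.78 to 1.10 CPM against 0.11 to 0.21 CPM in the trr experiment, with 0 called of 1 tested. In the G9a experiment they stood at 0 to 0.12 CPM against 0.14 to 0.22 CPM, with 0 tested. Beside these marker calls, the share of all genes called was 1.03% for trr and 7.56% for G9a. Reads not aligned made up 9.52% to 9.78% in knockdown-labelled libraries against 10.5% to 10.7% in controls, and 7.86% to 9.30% in mutant-labelled libraries against 12.2% to 20.4% in controls. The part of these differences in the results for linked genes was not tested.

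Members measured 157 to 699 bp, and their median length was 376 bp with quartiles of 296 and 486 bp. The 1783 narrow autosomal sites with no site within 3000 bp had a median of 382 bp and quartiles of 301 and 501 bp. Median lengths were 364 bp for the 262 members with a gap under 300 bp, 377 bp for the 256 with a gap from there to under 1000 bp, 390 bp for the 177 with a gap to under 2000 bp and 376 bp for the 174 beyond.

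The gap to the nearest site was between 8 and 2986 bp, with a median of 699 bp and quartiles of 224 and 1788 bp. It was under 300 bp for 262 members (30.1%), which is no more than the upper size of the sheared chromatin fragments, and under 1000 bp for 518 members (59.6%). The nearest site was itself narrow for 728 members and was a broad site (700 bp or more) for 141. Only 109 members had a site within the limit on both sides. Over all consecutive autosomal sites, 329 gaps were under 1000 bp, 130 were from 1000 to under 2000 bp and 127 from 2000 to under 3000 bp, and the next bins of 1000 bp held 106, 87 and 77 gaps. The short gaps therefore stood out from the flat part of the distribution mainly below 1000 bp, and the gaps just inside and just outside the limit of 3000 bp were about equally frequent.

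**Figure D1:**
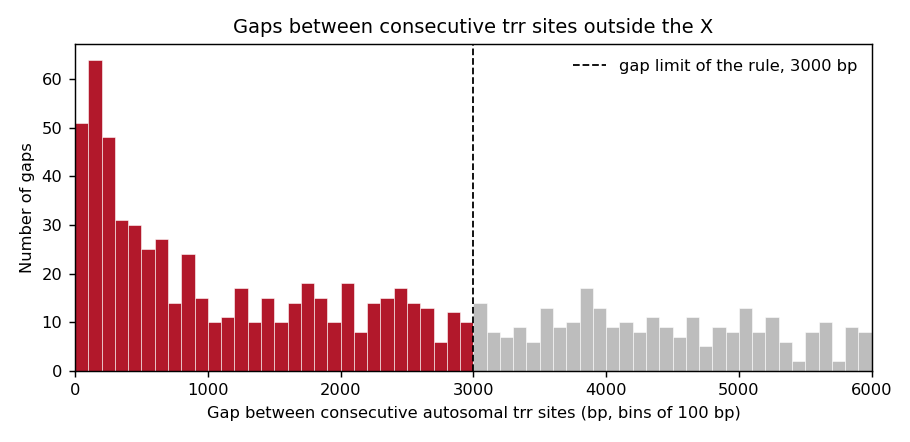
Number of gaps (vertical axis) by the distance between consecutive trr sites outside the X (horizontal axis, bp, bins of 100 bp up to 6000 bp). Red bars lie within the gap limit, marked by the dashed line, and grey bars beyond it. The first 3 bins hold 51, 64 and 48 gaps, and from 1000 bp on no bin holds more than 18.

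The longest members were chr2R:12473894-12474593 (699 bp, linked to RpLP2) and chr2R:16150935-16151633 (698 bp, linked to plu), and the shortest sites left out for length although another site was near were chr3L:5360788-5361489 (701 bp, Pfdn4) and chr2R:7060807-7061509 (702 bp, shn). Coordinates are those of dm3 as the list gives them. The members with the widest gaps were chr2R:11898917-11899211 (2986 bp, CG8389) and chr2L:1724359-1724582 (2954 bp, Rim2), and the narrow sites left out with the smallest gap were 2 neighbours on 3L, chr3L:17005444-17005923 (CG3764) and chr3L:17008938-17009612 (CG6664), 3015 bp apart. The smallest gap of all, 8 bp, separated the member chr3R:25203302-25203525 from a broad site of 1255 bp, chr3R:25202039-25203294. Between members it was 24 bp, between chr3R:16783399-16783853 and chr3R:16783877-16784117.

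Joined wherever the gap was at most 3000 bp, the members formed 440 runs, some of them with broad sites. Of these, 336 runs held 2 sites, 84 held 3, 14 held 4, 4 held 5 and 2 held 6. Pairs of members alone made up 245 runs and spanned between 558 and 3969 bp, with a median of 1651 bp. A single member beside a single broad site made up 91 runs. The 104 runs of 3 or more sites held 288 members (33.1%), so most members had only 1 close neighbour. Where sites less than 300 bp apart were first joined into 1, the rule gave 612 members in 330 runs.

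Members were spread over all large arms in similar shares. Of the narrow sites, 170 of 546 were members on arm 2L (31.1%) and 204 of 613 on arm 2R (33.3%), with 222 of 652 on 3L (34.0%) and 251 of 780 on 3R (32.2%). Chromosome 4, a small chromosome that is largely heterochromatic, held 15 among its 37 narrow sites (40.5%). On the X, which the rule left out, 29 of 192 narrow sites (15.1%) met the same limits. Sites of any length were also densest on chromosome 4 and sparser on the X than on the large arms. Their density was 55.5 per Mb between the outermost sites on chromosome 4, between 29.0 and 34.3 per Mb on the large arms and 10.03 per Mb on the X. The list merges both replicates, so none of these shares has a replicate error.

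The 15 members on chromosome 4 formed 10 runs, 9 of them of 2 sites, and 6 of the 10 included a broad site, against 138 of all 440 runs. The only run of 3 there was chr4:978811-979357, chr4:979917-980264 and chr4:980465-980750, all members, with gaps of 560 and 201 bp. The separately assembled heterochromatin sequences held 7 members in all, 3 on 2RHet, 3 on 3RHet, 1 on 2LHet and 0 on 3LHet. Those on 2RHet and 2LHet were linked to mir-2279, eIF4B and CG12567.

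There were 17 runs with at least 4 members, with 7 on 3R, 4 on 2L and 3 each on 2R and 3L. The run with most members lay on 2R at Sin3A, which encodes a scaffold of histone deacetylase complexes. Its 6 sites ran over 6543 bp, beginning with chr2R:8474565-8474785 and chr2R:8475205-8475438 in an intron of Sin3A. Next came chr2R:8476391-8477068 and chr2R:8477334-8477749, promoter sites linked to the non-coding gene lncRNA:CR30055 and placed at a Sin3A transcript. The last were chr2R:8479813-8480376 in the 5′ UTR of Sin3A and chr2R:8480766-8481108, a promoter site linked to Amph, the Drosophila amphiphysin. All 6 therefore lay at or within 1 gene, although the link by nearest gene named 3.

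Runs that kept to 1 gene were also seen at Reph and sm. Reph (regulator of eph expression) had 4 members over 3554 bp on 2L, in a pattern of close pairs: chr2L:3802886-3803153 and chr2L:3803492-3804027 were 339 bp apart, and chr2L:3805501-3805914 and chr2L:3806170-3806440 were 256 bp apart, with 1474 bp between the pairs. The pairs were placed at different transcripts of Reph. sm (smooth, an RNA-binding protein of the hnRNP L kind) had 4 members over 2762 bp on 2R, chr2R:15517927-15518411, chr2R:15518813-15518999, chr2R:15519395-15519617 and chr2R:15520417-15520689, with gaps of 402, 396 and 800 bp.

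Trl encodes the GAGA factor, a DNA-binding protein that opens chromatin at promoters. It had 4 members in a run of 5 sites over 7076 bp on 3L. The first, chr3L:14748292-14748628, chr3L:14749502-14749866 and chr3L:14750287-14750648, lay in an intron of Trl, and chr3L:14752943-14753404 lay at the transcription end of its neighbour Tsen34, whose promoter carried the broad site chr3L:14754626-14755368. At the locus of 14-3-3zeta, an adaptor protein known for roles in Ras signalling and olfactory learning, 3 members followed a site at the promoter of Jra, the fly Jun. They were chr2R:5987241-5987567, chr2R:5988588-5988874 and chr2R:5989088-5989386, after chr2R:5984215-5984716. The first of the 3 was placed at a promoter of RpLP0-like, and the others lay in an intron of 14-3-3zeta. The run at Hipk, a nuclear protein kinase, held chr3L:540396-540923 at the promoter of klar and chr3L:542900-543572, chr3L:544164-544567 and chr3L:545868-546209 linked to Hipk. Of these, chr3L:542900-543572 was placed at a promoter of Cypl.

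On 2L, the run over spen, a large RNA-binding co-repressor, held close pairs on either side of a broad site. chr2L:155707-156025 and chr2L:156102-156401, linked to CG3436, were 77 bp apart, chr2L:158445-159259 was the broad site at the spen promoter, and chr2L:160889-161134 and chr2L:161208-161474 in the spen 5′ UTR were 74 bp apart. The run at the 3′ side of bun, a TSC22-family gene, held chr2L:12455088-12455395 (linked to CG5418), chr2L:12456900-12457482 and chr2L:12459980-12460270 (linked to mir-967) and chr2L:12460755-12461414 (linked to bun). In 2 runs each site was placed at a promoter and the links named several genes. On 2L, chr2L:4967622-4967902, chr2L:4968789-4969116, chr2L:4971345-4971833 and chr2L:4973837-4974161 were linked to eIF3i, Scox, CG14043 and mRpL28 as nearest genes, while the promoters were those of eIF3i, Polr1C and, for the last 2 sites, 1 other gene. On 3L, chr3L:15134829-15135106 and chr3L:15135475-15135848 were linked to FBgn0014002, chr3L:15137007-15137481 to CG32147 and chr3L:15139936-15140469 to FucTA.

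The 7 long runs on 3R are given by position only, since the link to genes was not used beyond 3L. The longest run of all spanned 10139 bp, with the members chr3R:4873447-4874045, chr3R:4876179-4876590, chr3R:4878018-4878467, chr3R:4879982-4880249 and chr3R:4882097-4882407 and a broad site of 915 bp at its end. The tightest spanned 1650 bp, with chr3R:20397520-20397880, chr3R:20398006-20398338, chr3R:20398402-20398609 and chr3R:20398693-20399170 and gaps of 126, 64 and 84 bp. A similar run of 2038 bp held chr3R:5243259-5243906, chr3R:5244109-5244425, chr3R:5244617-5244828 and chr3R:5244952-5245297. Runs of 5 members lay at chr3R:5908399-5915280 and chr3R:13740857-13746348, and the remaining runs of 4 at chr3R:5061968-5065910 and chr3R:18191671-18195727.

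**Figure D2:**
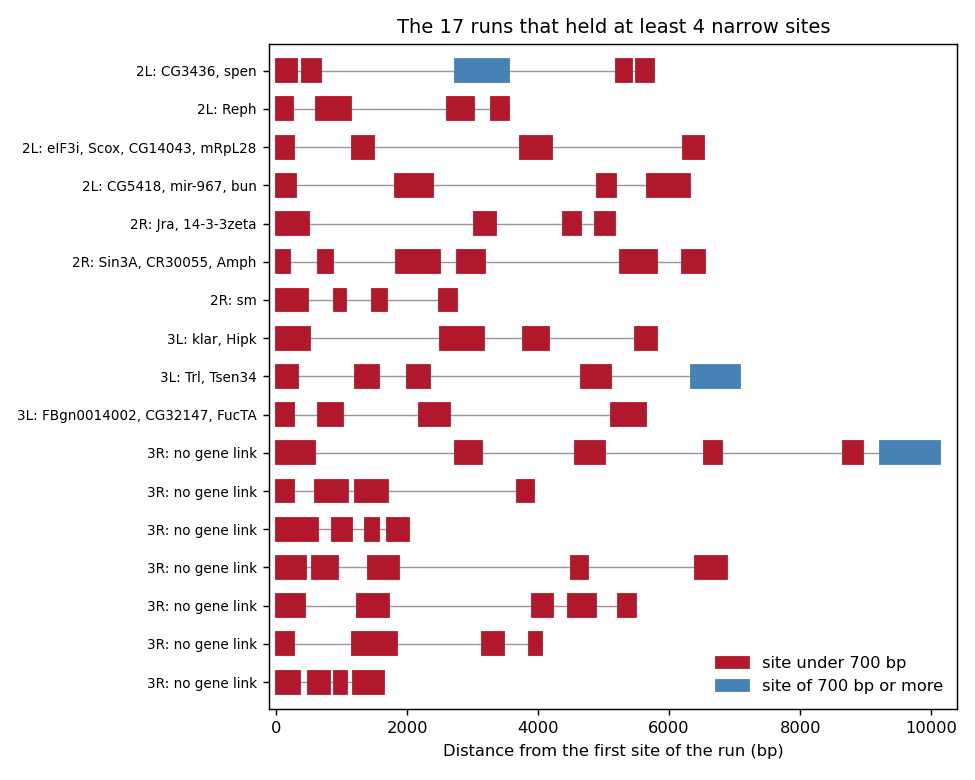
Each line is 1 of the 17 runs with at least 4 members, drawn to scale by the distance in bp from its first site (horizontal axis) and named by arm and linked genes. Red boxes are sites under 700 bp and blue boxes are sites of 700 bp or more. Spans go from 1650 bp in the last line to 10139 bp in the first 3R line, and the Sin3A run shows 6 red boxes.

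The nearest gene and the feature class of a site were taken from the study's HOMER annotation, which was used here from 2L to position 17663042 of 3L and covers 555 members (63.9%), 1131 other narrow autosomal sites and 312 broad ones. Promoters, the stretches around annotated transcription starts, held most members, 394 of 555 (71.0%), against 875 of the 1131 other narrow sites (77.4%) and 260 of the 312 broad sites (83.3%). Introns held 79 members (14.2%), against 83 other narrow sites (7.34%) and 13 broad sites (4.17%). The 5′ UTR held 22 members (3.96%), against 24 other narrow sites (2.12%), and intergenic stretches held 22 members (3.96%), against 76 other narrow sites (6.72%). The share in introns was highest at short gaps, with 26 of 157 members (16.6%) under 300 bp and 28 of 166 (16.9%) from 300 to under 1000 bp, against 14 of 122 (11.5%) from 1000 to under 2000 bp and 11 of 110 beyond. Neighbouring members share a locus and are not independent, so these shares are given without a test.

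The share of neighbouring pairs linked to 1 gene fell as the gap grew. A link names the nearest gene, so sites close together tend to share a link by construction. The fall is therefore described without a test. Of 68 pairs of neighbouring narrow sites less than 300 bp apart, 55 (80.9%) were linked to the same gene, and of 77 pairs from 300 to under 1000 bp apart 50 were (64.9%). The share was 36.7% (22 of 60) from 1000 to under 2000 bp and 24.1% (14 of 58) from there to 3000 bp. Past the limit it was 23.1% (28 of 121) up to 6000 bp and 9.38% (12 of 128) up to 10000 bp, so the limit of 3000 bp marked no step. In all, 141 of the 263 pairs within the limit (53.6%) were linked to 1 gene. Of the 155 pairs with both sites at promoters, 103 were linked to different nearest genes and 52 to the same gene. Of these 52, 22 were at different transcripts of that gene. Promoters were assigned by transcript, so sites with different nearest genes can lie at promoters of 1 gene. The neighbouring sites linked to CG14043 and mRpL28, for example, were both placed at promoters of 1 other gene. How many of the 103 pairs did so was not counted. Of the 122 pairs within the limit linked to different genes, 116 had both genes in the RefSeq table of Release 6, where 55 (47.4%) were next to each other in order of gene starts and 92 (79.3%) had at most 1 other gene start between them.

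**Figure D3:**
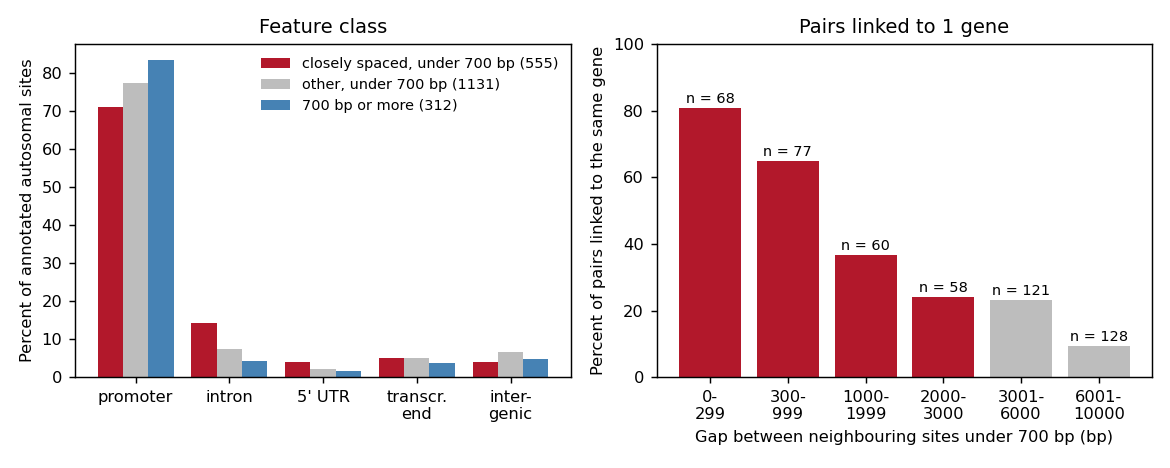
Left, percent of annotated autosomal sites (vertical axis) in each feature class for closely spaced narrow sites (red, n = 555), other narrow sites (grey, n = 1131) and broad sites (blue, n = 312). Right, percent of neighbouring narrow pairs linked to the same gene by the gap between them in bp, red within the limit of the rule and grey beyond it, with the number of pairs above each bar, from 80.9% at under 300 bp to 9.38% at 6001 to 10000 bp.

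The 555 annotated members were linked to 406 genes, 395 of them with a symbol and 379 listed as protein-coding. Most genes (286) had 1 member, 98 had 2, 17 had 3, 3 had 4 and 2 had 5. Genes with 2 or more thus took 269 of the 555 members (48.5%). The 2 genes with 5 members were gol and psq. gol (goliath, a membrane RING ubiquitin ligase) had a pair in an intron at chr2R:20963338-20963796 and chr2R:20963871-20964503, 75 bp apart, another site in an intron at chr2R:20970841-20971266, 1 at its promoter, chr2R:20971508-20972153, and 1 at the transcription end of lov, chr2R:20973008-20973524. psq (pipsqueak, a BTB-domain factor that binds GAGA sequence) had 1 site in a repeat, chr2R:6439334-6439681, 2 intergenic sites, chr2R:6441467-6441892 and chr2R:6442612-6442980, and an intronic pair at chr2R:6451314-6451843 and chr2R:6451961-6452254, 118 bp apart.

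The 17 genes with 3 members were Sin3A, 14-3-3zeta, HmgD, tna, lilli, Hipk, Pdk1, bun, Drep2, scny, Baldspot, Vha16-1, Prps, Rdh, Atet, CG6424 and CG32264. Several are regulators of chromatin and transcription: HmgD is an HMG-box DNA-bending protein, tna (tonalli) works with the Brahma complex and lilli is an elongation factor of the AF4 family. Others serve signalling or metabolism, such as the kinase Pdk1, the ubiquitin protease scny, the fatty acid elongase Baldspot, the V-ATPase subunit Vha16-1 and the phosphoribosyl pyrophosphate synthetase Prps. In HmgD, chr2R:17600496-17601032, chr2R:17601194-17601564 and chr2R:17601650-17601854 had gaps of 162 and 86 bp, and in Baldspot chr3L:16653083-16653453, chr3L:16653549-16653998 and chr3L:16654272-16654864 had gaps of 96 and 274 bp. Members were counted by nearest gene. For 14-3-3zeta, Hipk, lilli, Drep2, scny, Atet, Rdh and bun, a counted member was placed at a transcript of another gene.

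Members were also looked up in 5 gene lists of interest to the study, beside 389 of all 15682 genes in the count files (2.48%) that were linked to members. Of 50 chromatin and transcription regulators in the count files, 6 were linked to members (HmgD, Sin3A, Trl, lilli, psq and tna), and each had 3 or more. Of 31 learning and memory genes 4 were linked (14-3-3zeta, Arc1, Arc2 and crol), of 44 axon guidance genes 3 (caps, kuz and tutl), of 29 Ras and MAPK genes 3 (Ras64B, Spred and spi) and of 27 ecdysone response genes 2 (Eip63E and Eip74EF). Pairs of members lay at spi, the ligand of the EGF receptor (chr2L:19571819-19572132 and chr2L:19572427-19572855, 295 bp apart), at caps, a leucine-rich repeat protein of axon targeting (chr3L:13220681-13221136 and chr3L:13221436-13221988, 300 bp apart), at tutl, an immunoglobulin-domain protein (chr2L:4282947-4283333 and chr2L:4283553-4283897, 220 bp apart), at crol and at Eip63E. The lists hold genes on all chromosomes while links were used for part of the genome, so these counts are lower bounds.

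RNA-seq asked whether genes with such sites changed where trr or G9a was targeted, a measure the rule did not use. Genes were called by edgeR's quasi-likelihood test at an adjusted p under 0.05 (Benjamini-Hochberg) and a fold change over 1.5. Of the 406 linked genes, 389 were in the count files. In the trr comparison 371 were tested and 2 were called (0.539%), Arc1 higher and baf lower, while 118 of all 11416 genes tested were called (1.03%). In the G9a comparison 373 were tested and 9 were called (2.41%), 2 higher and 7 lower, while 932 of all 12329 were called (7.56%), 245 higher and 687 lower. Genes linked only to other narrow autosomal sites in the same stretch had 9 of 928 called (0.970%) in the trr comparison and 42 of 941 (4.46%) in the G9a comparison. Genes linked only to broad autosomal sites there had 1 of 211 called (0.474%) in the trr comparison and 7 of 213 (3.29%) in the G9a comparison. In both comparisons the share called was below that over all genes for genes with closely spaced sites and for both other classes. No test of these differences was run, and the trr shares rest on few calls.

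The fold changes of the linked genes centred where those of all genes did. Their median log2 fold change was -0.003 in the trr comparison, against 0.001 over all genes, and 0.05 in the G9a comparison, against 0.04 over all genes. The middle 50% of linked genes lay between -0.18 and 0.15 in the trr comparison and between -0.14 and 0.24 in the G9a comparison, against -0.25 to 0.20 and -0.25 to 0.32 over all genes. Of the genes with 2 or more members, 0 of 112 were called in the trr comparison, with 14 at an unadjusted p under 0.05 and 2 called by DESeq2. Over all genes of that comparison 19.2% had an unadjusted p under 0.05 and DESeq2 called 4.34%. In the G9a comparison 2 of 113 were called, CG13315 and Acsl, with 4 called by DESeq2, while over all genes 25.5% had an unadjusted p under 0.05 and DESeq2 called 8.88%.

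**Figure D4:**
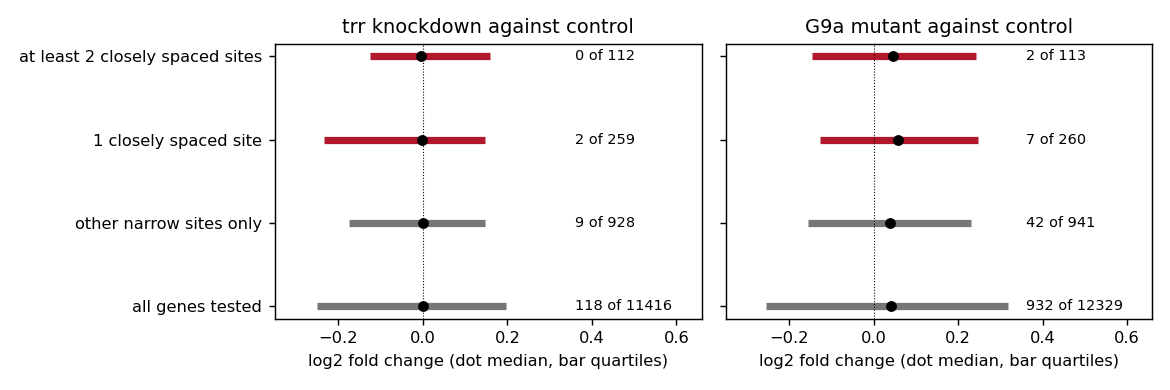
Median (dot) and quartiles (bar) of the log2 fold change, libraries labelled knockdown or mutant over their controls, for genes with at least 2 closely spaced sites, genes with 1, genes linked to other narrow sites only and all genes tested. The numbers at the right of each row are genes called of genes tested, and all medians lie between -0.004 and 0.06.

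Arc1, an activity-regulated gene with a retroviral Gag-like protein that is packaged in capsids, was called in both comparisons and in opposite directions. It had 109 and 102 CPM in the libraries labelled trr knockdown, against 54.1 and 59.2 CPM in their controls, and the groups did not overlap. The log2 fold change was 0.90 (SE 0.106, edgeR adjusted p = 0.031, n = 2 each). In the libraries labelled G9a mutant Arc1 had 143, 123 and 153 CPM, against 216, 196 and 262 CPM in controls, again without overlap, with a log2 fold change of -0.72 (SE 0.137, edgeR adjusted p = 0.0136, n = 3 each). The site at the Arc1 promoter, chr2R:10247676-10247878, was 202 bp long and lay 1406 bp from a member at the promoter of the neighbouring paralog Arc2, chr2R:10249284-10249629. Arc2 was not called, at 9.34 and 8.95 CPM against 6.66 and 7.47 CPM in the trr experiment (log2 fold change 0.37, edgeR adjusted p = 0.29) and at 7.25, 10.5 and 9.42 CPM against 7.89, 10.3 and 9.98 CPM in the G9a experiment (-0.09, edgeR adjusted p = 0.797).

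baf encodes the barrier-to-autointegration factor, a small DNA-bridging protein of the nuclear lamina. It had 9.34 and 9.67 CPM in the libraries labelled trr knockdown, against 37.6 and 22.96 CPM in their controls (log2 fold change -1.66, SE 0.23, edgeR adjusted p = 0.0438, n = 2 each), with no overlap but a wide spread between the controls. Its site, chr2L:8029244-8029481, was 980 bp from a member at the promoter of Cka and was placed at a transcript of CG7367. With either knockdown library left out, baf and Arc1 were no longer called in the trr comparison, with adjusted p-values of 0.916 for both without replicate 1 and of 0.402 and 0.387 without replicate 2. With a control library left out instead, the log2 fold change of baf was -1.31 (without replicate 1) and -1.95 (without replicate 2). That of Arc1 was 0.80 and 1.00.

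In the G9a comparison the 7 linked genes that fell included several enzymes. CG13315 fell most, to 150, 147 and 130 CPM in the libraries labelled G9a mutant, against 309, 301 and 343 CPM in controls (log2 fold change -1.19, SE 0.101, edgeR adjusted p = 0.000369, n = 3 each). Its members, chr3L:9096711-9097392 and chr3L:9097487-9097754, were 95 bp apart and lay within an intron of bol. Reg-2 (rhythmically expressed gene 2) had 12.3, 12.97 and 13.4 CPM in mutant-labelled libraries against 22.9, 28.9 and 33.3 CPM in controls (-1.17, SE 0.147, edgeR adjusted p = 0.00214), with a promoter site at chr3L:606849-607336. In the trr experiment Reg-2 stood at 15.3 and 15.8 CPM against 29.7 and 21.7 CPM (-0.72, edgeR adjusted p = 0.106) and was not called by edgeR. The study, which used DESeq2, reported Reg-2 as differentially expressed in both conditions.

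Alg3, a mannosyltransferase of N-glycan assembly, had 13.2, 9.88 and 13.1 CPM in mutant-labelled libraries against 22.9, 20.8 and 25.4 CPM in controls (-0.97, SE 0.15, edgeR adjusted p = 0.00556). Agpat4, an acyltransferase of phospholipid synthesis, had 4.41, 5.61 and 4.59 CPM against 9.77, 8.79 and 8.55 CPM (-0.92, SE 0.166, edgeR adjusted p = 0.0108). The groups of both genes were apart, and each had 1 promoter member, chr2R:19597161-19597529 for Alg3 and chr3L:16374508-16374961 for Agpat4, 2511 and 2685 bp from the nearest site. aay (astray), the phosphoserine phosphatase of serine synthesis, had 137, 108 and 116 CPM against 216, 171 and 185 CPM (-0.70, SE 0.131, edgeR adjusted p = 0.0133), and its site chr3L:9417343-9417999 was placed in its 3′ UTR.

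Acsl, a long-chain acyl-CoA synthetase, had 194, 191 and 147 CPM in mutant-labelled libraries against 323, 254 and 234 CPM in controls (-0.64, SE 0.158, edgeR adjusted p = 0.0385), and its intronic members chr2R:4555047-4555344 and chr2R:4556282-4556637 followed a broad site at its promoter. The genes that rose were CG12795, with 26.6, 29.3 and 29.9 CPM against 16.2, 15.8 and 19.4 CPM (0.70, SE 0.119, edgeR adjusted p = 0.00827), and Uhg5, a snoRNA host gene, with 28.6, 20.9 and 29.0 CPM against 7.95, 16.1 and 15.2 CPM (0.97, SE 0.257, edgeR adjusted p = 0.0499). The site of CG12795, chr2L:3452167-3452537, was placed at its own promoter, and that of Uhg5, chr2R:10508816-10509388, at a promoter of CG12863. Uhg5 and Acsl were no longer called with any 1 library left out, with adjusted p-values between 0.0544 and 0.121 for Uhg5 and between 0.050002 and 0.0929 for Acsl. Without mutant replicate 2, aay (edgeR adjusted p = 0.0552) and Arc1 (edgeR adjusted p = 0.0536) were not called either. In that fit 5 of 372 linked genes remained called (1.34%), beside 5.35% of all genes.

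**Figure D5:**
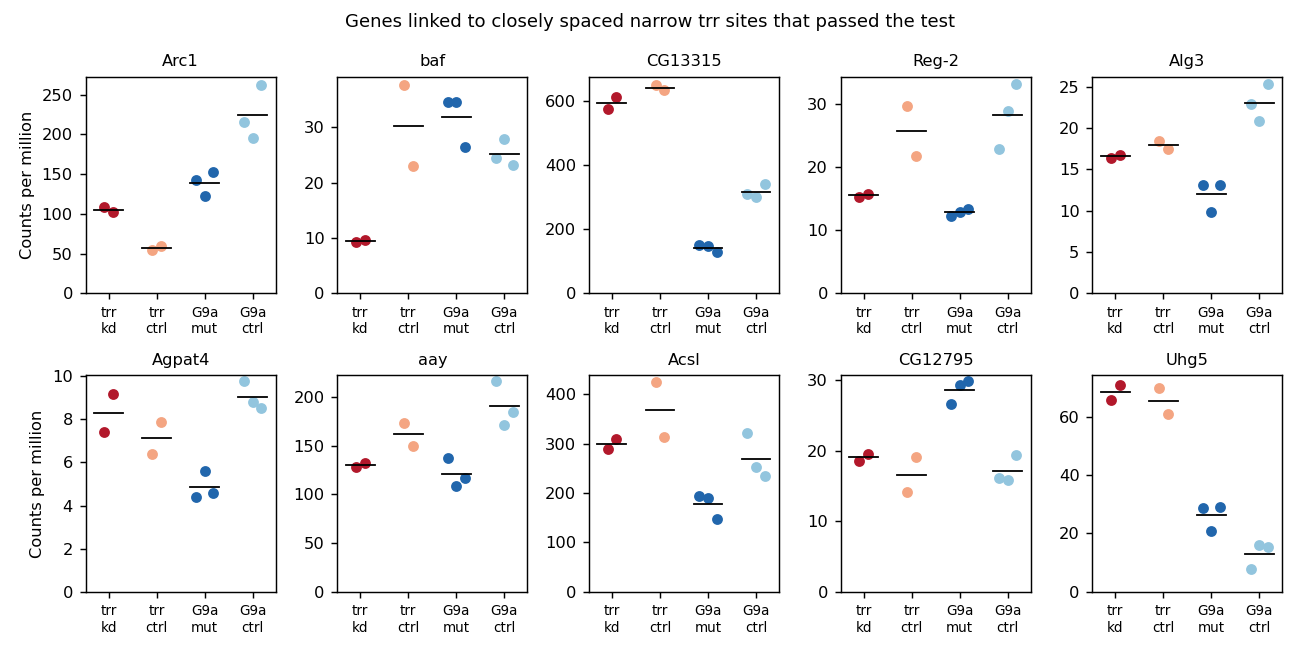
CPM in each library (points) and the group mean (line) for the 10 linked genes called in at least 1 comparison, with libraries labelled trr knockdown (kd), their controls, libraries labelled G9a mutant (mut) and their controls from left to right and vertical axes from 0. Arc1 lies above its controls in the knockdown-labelled libraries and below them in the mutant-labelled ones, and baf lies near 9 CPM in the knockdown-labelled libraries alone.

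The 22 genes with 3 or more members gave 0 calls in either comparison, beside 1.03% (trr) and 7.56% (G9a) of all genes. In the trr comparison 3 had an unadjusted edgeR p under 0.05 (0 called by DESeq2), beside 19.2% of all genes (4.34% by DESeq2). In the G9a comparison 4 did (1 called by DESeq2), beside 25.5% of all genes (8.88% by DESeq2). No test was run, and 22 genes are too few to set these counts apart from the shares over all genes. Log2 fold changes of the 22 lay between -0.95 and 0.29 in the trr comparison and between -0.25 and 0.59 in the G9a comparison. 14-3-3zeta had the lowest adjusted p of the 22 in both comparisons, but in the trr comparison its change was under 1.5-fold. It had 1125 and 1167 CPM in libraries labelled trr knockdown against 1634 and 1492 CPM in controls (-0.44, SE 0.087, edgeR adjusted p = 0.0891), and 1551, 1558 and 1291 CPM in libraries labelled G9a mutant against 720, 1029 and 1109 CPM in controls (0.59, SE 0.166, edgeR adjusted p = 0.061). With the replicate number as a block, 14-3-3zeta was called in the G9a comparison (log2 fold change 0.61, edgeR adjusted p = 0.0498). It was also called there with DESeq2 (0.59, DESeq2 adjusted p = 0.00189) and without mutant replicate 3 (0.68, edgeR adjusted p = 0.0487). The extreme of -0.95 belonged to Rdh, a retinol dehydrogenase, at 3.55 and 3.11 CPM against 9.43 and 3.61 CPM (SE 0.431, edgeR adjusted p = 0.291), where only 1 control stood apart.

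None of the 5 genes with 4 or more members was called. The shares over all genes were 1.03% (trr) and 7.56% (G9a), so 0 calls among 5 genes is no result about them. gol had 209 and 212 CPM in libraries labelled trr knockdown against 278 and 184 CPM, and 262, 250 and 223 CPM in those labelled G9a mutant against 210, 179 and 163 CPM (0.38, SE 0.119, edgeR adjusted p = 0.0891). psq had 393 CPM in each knockdown-labelled library against 329 and 358 CPM (0.20, edgeR adjusted p = 0.316), and Trl had 16.9, 14.9 and 12.8 CPM in mutant-labelled libraries against 9.0, 10.9 and 11.1 CPM (0.49, SE 0.148, edgeR adjusted p = 0.0756). Neither gol nor Trl passed the test in either comparison. The log2 fold changes of sm and Reph lay between -0.03 and 0.11.

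Of the list genes linked to members, Arc1 alone was called. Over the whole lists, the trr comparison called 1 of 30 learning and memory genes higher (Arc1). It called 0 of 27 ecdysone response, 44 axon guidance, 29 Ras and MAPK and 50 chromatin genes, beside 1.03% of all genes. At that share, 0 calls in lists of this size is no result about them, and no test of the lists was run. The G9a comparison called 2 of 30 learning and memory genes lower (Arc1 and orb), 1 of 29 Ras and MAPK genes higher (rl, the ERK kinase) and 2 lower (Egfr and pnt), and 0 of 27 ecdysone response, 44 axon guidance and 50 chromatin genes, beside 7.56% of all genes.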

How the data were processed

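ChIP-seq of wildtype heads was used as the deposited list of sites, and RNA-seq of heads as the deposited counts of reads per gene. To make it, the authors mapped reads with BWA 0.6.1 to the dm3 genome, called peaks with MACS2 in each of 2 replicates against the input, merged the regions and kept those with enough reads and similar depth in both replicates. The deposited list gives a position, start and end per site, with no score or count, so depth and replicate spread per site are unknown here. For the RNA-seq counts, the authors used BWA on the same genome with 1 mismatch allowed, and HTSeq with the BDGP5 annotation for uniquely mapped reads. These deposited counts were not normalized, and the strand setting is not given in the sources used here. Summary lines that name no gene were dropped. They hold between 9.29% and 18.0% of reads outside genes, between 1.58% and 2.55% ambiguous reads and between 7.86% and 20.4% reads not aligned.

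Members, gaps and runs were computed with Python 3.11.15 and pandas 2.3.3 from the positions as listed. Sites were linked to genes through the nearest gene and feature class of the HOMER annotation, matched on identical chromosome, start and end. Part of that annotation was used, so 314 members have no link here and no enrichment was computed. The annotation names a nearest gene and a transcript, and for 125 of 524 members whose transcript was found in the RefSeq table they belong to different genes. Symbols came from a table of gene names.

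Differential expression was computed with edgeR 4.0.16 in R 4.3.3 in each experiment alone. It used TMM normalization, genes of at least 10 summed counts and Benjamini-Hochberg adjustment over all genes tested. The SE of a log2 fold change was derived as its absolute value divided by the square root of the quasi-likelihood F statistic. The scripts were tested on simulated counts. The alternatives were other limits of the rule, RLE size factors, filterByExpr, no filter, DESeq2 1.42.0, the replicate number as a block, each replicate left out, and links through promoter sites or genes with at least 2 members only. A link through the gene of the annotated transcript was added after seeing the data. Same-numbered G9a libraries deviated together from their group means (correlations of 0.25, 0.18 and 0.44), which was taken as pairing, although the labels name no shared batch. The main fit nevertheless had no block, so its G9a p-values leave this pairing out. The fit with the block was an alternative. It called 13 linked genes where the main fit called 9, beside 8.87% of all genes with the block and 7.56% in the main fit. P-values weigh the difference between groups against the spread between libraries, which edgeR estimates with information shared across genes.

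Named genes were all those with 3 or more members, up to 10 linked genes called in each direction of each comparison, genes of the 5 lists with 2 or more members or called, and trr and G9a. Named sites were those of runs with 4 or more members, those nearest each limit and those of named genes. Called list genes without a member and the remaining linked list genes, Arc2, kuz, Ras64B, Spred and Eip74EF, and the members on small chromosomes were named after their values were seen. The members, the lists and these rules were chosen with earlier results of these data known. A search for promoter motifs was planned and not run, since no promoter sequences were used here.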

Additional observations from a re-analysis of the deposited data

How the results depend on the processing

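With a gap limit of 1000 bp the rule gave 518 members in 280 runs, and the other 6 limits and ways of joining sites gave between 612 and 1132 members and between 330 and 549 runs. The list combines the replicates, so no replicate could be left out of these counts. In the trr comparison the 2 linked genes called became 0 with no filter on low counts, 11 with DESeq2, 15 with the replicate block, 0 among genes with at least 2 members and 1 with links through the annotated transcript, and were between 0 and 41 with 1 library left out, where the lone library is assumed to vary like the other group. Over all genes those settings called 29, 496 and 819 genes and between 0 and 2009. The share called among linked genes stayed below that over all genes in each of these fits that called any linked gene. The trr replicate numbers gave a correlation of -0.06 and share only a number. Arc1 and baf were also not called with no filter (adjusted p = 0.0641 and 0.0875, edgeR).

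In the G9a comparison the 9 linked genes called were 2 among genes with at least 2 members, between 5 and 10 with 1 library left out, 13 with the replicate block and between 6 and 13 elsewhere. Over all genes the share called was between 5.35% and 7.75% with 1 library left out. It was 8.87% with the block and between 6.76% and 10.6% elsewhere. Linked genes had the lower share in each of these fits. The block changed no call among the 9. With 1 library left out, the log2 fold change in the trr comparison lay between -0.067 and 0.0086 for sm, between -0.37 and 0.16 for gol and between -0.011 and 0.17 for Reph, and in the G9a comparison between -0.10 and 0.090 for sm, so these signs rest on single libraries. Without trr control replicate 2, Rdh was called lower (-1.46). The cause was not tested. Changes under 1.5-fold were never called, whatever their p, and links were used for part of the members.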
